A study of Mus musculus with 18 samples.

Results

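Mouse embryonic fibroblasts (MEF) that carried an empty vector were compared with and without TGF-β across all expressed genes. The comparison used 6 of the 18 libraries of the series, 3 untreated (Ctrl, replicates c, d and e) and 3 treated with TGF-β (CtrlT, replicates c, d and e), and 21161 of 55450 genes in the table had enough counts to be tested. Both groups were MEF cells from the American Type Culture Collection, grown with fetal bovine serum and transfected with the empty pcDNA3 plasmid by Lipofectamine. At 6 h after transfection the treated cells received 20 ng/ml TGF-β for 24 h and the untreated cells received none, after which poly(A) RNA was sequenced. The other 12 libraries came from the same cells with a Col1a1-miR-29b or a CMV-miR-29b vector, with and without TGF-β, and they share the transfection with the cells described here. All libraries came from 1 cell source, so p-values measure the spread between repeated cultures of that source, and cells without transfection were not analysed here.

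TGF-β is a secreted ligand that binds a pair of receptor kinases at the cell surface. The activated receptors phosphorylate Smad2 and Smad3, which join Smad4, enter the nucleus and change transcription together with other factors, while induced proteins such as Smad7 and Pmepa1 damp the signal. In fibroblasts the pathway is known for raising collagen and other matrix genes and for turning the cell toward a contractile myofibroblast.

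The 6 libraries held between 73598078 and 80332633 counts. Levels are given here as CPM, a gene's counts scaled to its library's total times edgeR's scaling factor (TMM) for that library. The factor ran from 0.968 to 0.9917 in the treated and from 0.9962 to 1.0088 in the untreated libraries. Treated CPM values are therefore somewhat higher than with scaling by the total alone. The fibroblast label was checked against markers. Of 12 fibroblast markers 9 had a mean of at least 1 CPM. The summed level of the list ran from 4189 to 4612 CPM without and from 6755 to 7732 CPM with TGF-β. Most of that rise lay in the collagen genes Col1a1 (mean 989.5 to 2362 CPM) and Col1a2 (605.3 to 1686 CPM). Of 10 tested markers 4 were called higher and 2 lower, the latter Dcn and S100a4. Lum, a matrix proteoglycan of many fibroblasts, was at 0 and Thy1 was too low to be tested. Defining markers of other cell types were at 0 or near it (Epcam and Cldn3 for epithelium, Erg for endothelium, Adgre1 and Laptm5 for leukocytes, Rbfox3 and Snap25 for neurons, Myf5 for muscle). The summed epithelial markers fell outside each other's range, 70.7 to 86.1 CPM without and 44.5 to 53.8 CPM with TGF-β, almost all of it the keratin Krt19, and the endothelial sum was 66.7 to 74.8 against 61.0 to 68.1 CPM, almost all of it the VEGF receptor Flt1. Other markers of these lists did not follow those sums, since 1 of 7 tested epithelial markers was called higher beside the lower Krt19 (median log2 fold change 0.33) and 1 of 7 tested endothelial markers was called higher and none lower (median 0.69). The leukocyte sum stood at 16.8 to 18.1 against 13.7 to 16.3 CPM, the neural sum at 48.7 to 59.9 against 78.4 to 81.2 CPM through the tubulin Tubb3, and the striated muscle sum at 6.84 to 8.62 against 60.6 to 81.6 CPM through the troponin Tnnt2 alone. The part of other cells in the results was not tested, and in bulk RNA fewer cells of a type and less RNA per cell cannot be told apart.

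A gene was called changed at an adjusted p under 0.05 in edgeR's quasi-likelihood test (Benjamini-Hochberg over all genes tested), and a log2 fold change is always treated minus untreated. TGF-β changed 1245 genes (5.88% of those tested), of which 820 were higher (3.88%) and 425 lower (2.01%). These shares are the background for every count of called list members below. With scaling by total counts the same test called 1265 genes, of which 53.1% were higher, against 65.9% in the main result. Most changes were small: the median log2 fold change of the called genes was 0.47 for the higher and −0.41 for the lower ones, and 992 changed by less than 2-fold. The 253 genes (1.2%) that changed at least 2-fold were 184 higher and 69 lower, and at least 4-fold the split was 68 against 12. Over all genes tested the median log2 fold change was 0.002. Leaving out 1 library at a time kept 635 of the 1245 calls in all 6 fits (428 higher and 207 lower), and the fewest genes, 725, were called without treated replicate e.

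**Figure D1:**
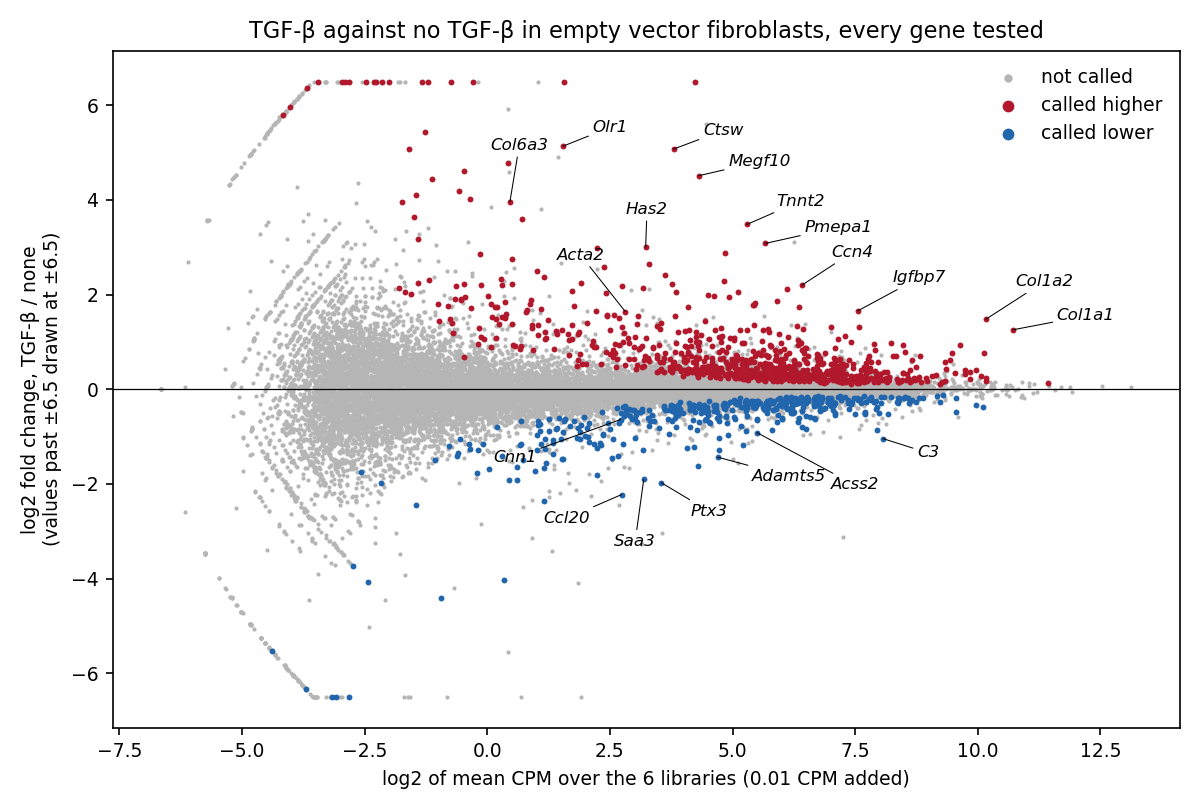
Log2 fold change (treated minus untreated) of each of the 21161 genes tested against its mean level over the 6 empty vector libraries (log2 of CPM with 0.01 added), with called genes in color and values past ±6.5 drawn at ±6.5. Far from 0 there are more red than blue points, with 184 genes at least 2-fold higher and 69 at least 2-fold lower.

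The largest rises were read among called genes with a mean of at least 1 CPM whose groups did not overlap. Some of these genes were nearly silent without TGF-β, and others were already expressed there. Olr1, a scavenger receptor for oxidized LDL, had 0.225, 0.0998 and 0.154 CPM in untreated replicates c, d and e and 4.16, 6.8 and 6.02 CPM in the treated ones. Megf10, an engulfment receptor, went from 1.34, 1.92 and 1.74 CPM to 37.4, 33 and 43.7 CPM, a log2 fold change of 4.51 (SE 0.17, edgeR adjusted p = 2.57e-10). Tnnt2, the troponin T of heart muscle, stood at 6.69, 5.78 and 6.86 CPM untreated and at 79.7, 59.4 and 76.7 CPM treated (log2 fold change 3.48, SE 0.13, edgeR adjusted p = 2.57e-10). That the groups of these 3 genes did not overlap was a condition of their choice. Of 10 striated muscle markers 6 had enough counts to be tested, and Tnnt2 was the 1 that was called. The acyl-CoA synthetase Acsbg1 rose from a mean of 6.86 ± 0.52 to 50.5 ± 6.3 CPM (SD, n = 3) and the potassium channel Kcnq3 from 25.8 ± 1.8 to 112.1 ± 7.8 CPM (SD, n = 3). Ctsw (log2 fold change 5.07), a cathepsin of lymphocytes, overlaps Fibp on the opposite strand and its counts may hold reads of that gene, since the strand setting of the counting is not given. The same limit holds for other genes named below that overlap a gene on the opposite strand. Among them are Ptx3 (Veph1), Igfbp7 (Polr2b), Scx (Bop1), Tagln (Pcsk7), Junb (Prdx2) and Cp (Hps3).

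At the other end, Ptx3, a pattern recognition protein of inflammation, fell from 20.7, 15.6 and 19.6 CPM to 4.72, 4.61 and 4.9 CPM (log2 fold change −1.97, SE 0.16, edgeR adjusted p = 9.58e-07). Enpp2, the enzyme autotaxin that makes lysophosphatidic acid, fell from 7.84, 7.93 and 6.18 CPM to 1.6, 2.64 and 2.06 CPM (log2 fold change −1.80, edgeR adjusted p = 2e-05). In both genes every treated library lay below every untreated one, which was a condition for a place among the 12 largest falls. Steap4, a metalloreductase (−1.73), Tigit, an immune receptor (−1.67), and Akr1c14, a steroid dehydrogenase (−1.63), were among the 12 largest falls, each from under 4 CPM. Grin1, a glutamate receptor subunit, fell by 1.92 on the log2 scale and Dchs2, a protocadherin, by 2.36.

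The pathway's own ligands, receptors and brakes were read first, because they show whether the cells answered the ligand. Of 24 tested Smads and feedback genes 8 were higher and none lower (median log2 fold change 0.15, against 0.002 over all genes). Pmepa1, which sequesters receptor-activated Smads, stood at 10.8, 10.1 and 11.2 CPM without and at 94.8, 82.7 and 94.8 CPM with TGF-β. Its log2 fold change of 3.08 (SE 0.08, edgeR adjusted p = 1.44e-12) had the lowest p of all genes tested. Ldlrad4, a Pmepa1 relative with the same role, rose from 3.30 ± 0.26 to 14.6 ± 2.2 CPM (SD, n = 3), and the MAP kinase phosphatase Dusp4 from 38 ± 3.5 to 85.7 ± 8.5 CPM (SD, n = 3). Both rises left the groups apart. The corepressor Tgif1 (0.64) and the ubiquitin ligase Smurf1 (0.41) rose less.

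Smad7, the inhibitory Smad, was far less even. It had 17.9, 16.8 and 10.3 CPM untreated and 40.2, 14.7 and 38.6 CPM treated, so treated replicate d lay within the untreated range. Its call (log2 fold change 1.05, SE 0.30, edgeR adjusted p = 0.0495) was lost when any library but treated replicate d was left out, with adjusted p from 0.0721 to 0.223, and with DESeq2 size factors (edgeR adjusted p = 0.0515), total counts (edgeR adjusted p = 0.0546) or every gene of at least 1 count kept (edgeR adjusted p = 0.0724). The corepressor Skil showed the same kind of spread, with 143 and 142 CPM in treated replicates c and d and 52.3 CPM in e, and was not called (edgeR adjusted p = 0.111). Levels of the signal carriers Smad2 (0.51), Smad3 (−0.10) and Smad4 (0.15) did not pass the test.

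Among 22 ligands, receptors and their binding proteins 6 were higher and none lower (median 0.08). Inhba, the subunit of activin A, made the largest move, from 14.3, 11.7 and 14.6 CPM to 55.9, 44.9 and 67.1 CPM (log2 fold change 2.05, SE 0.13, edgeR adjusted p = 7.95e-08). Secreted binders of the activin family rose beside it, Fstl3 by 0.88 and Fstl1 by 0.71, and the receptor kinase Acvr1 by 0.72. Tgfb1 itself went from 35.5 ± 3.1 to 45.2 ± 4.4 CPM (SD, n = 3), a log2 fold change of 0.35 whose call was lost without treated replicate c or e or untreated replicate d (edgeR adjusted p 0.0954 to 0.104), and Tgfb3 was at 0.45, lost without treated replicate e or untreated replicate c or d (edgeR adjusted p 0.103 to 0.152). The receptors Tgfbr1 (0.17, edgeR adjusted p = 0.0978) and Tgfbr2 (−0.12) and the ligand Tgfb2 (0.06, edgeR adjusted p = 0.877) were not called. In the BMP branch, which TGF-β is known to oppose in many cells, 3 of 19 genes were higher and 2 lower (median −0.11). Id3, a BMP target that blocks basic helix-loop-helix factors, fell from 38.3, 39.8 and 39.8 CPM to 24.5, 28.1 and 25.5 CPM (log2 fold change −0.59, edgeR adjusted p = 0.000228), and Atoh8, another target, fell by 1.06. The type II receptor Bmpr2 rose by 0.60, whereas Id1 (−0.42, edgeR adjusted p = 0.0932) and Id2 (−0.83, edgeR adjusted p = 0.116) were not called and Id4 was at 0 in all 6 libraries.

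Collagens were the list with the highest median. Of 33 tested 15 were higher and 3 lower (median 0.74), and 17 of these 18 calls held in every fit with 1 library left out. Col1a1, a chain of collagen I, stood at 1070, 942 and 955 CPM untreated and at 2410, 2180 and 2500 CPM treated (log2 fold change 1.26, SE 0.08, edgeR adjusted p = 6.81e-08). Its partner Col1a2 went from 657, 567 and 592 CPM to 1770, 1470 and 1820 CPM (1.48, SE 0.10, edgeR adjusted p = 8.2e-08). On the scale per length, Col1a1 had a mean level of 135 FPKM untreated, close to the 139.2 FPKM of the fibronectin gene Fn1, and 314.4 FPKM treated against 150.4 FPKM for Fn1. Col1a2 lay below Fn1 in both groups, with a mean of 43.6 FPKM untreated and 118.5 FPKM treated.

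Col3a1, the chain of collagen III, rose less, from 229, 186 and 196 CPM to 426, 338 and 433 CPM (0.97, SE 0.11, edgeR adjusted p = 2.86e-05). The fibril-nucleating collagens V and XI followed, with Col5a1 at 0.95, Col5a2 at 0.78, Col5a3 at 1.26 and Col11a1 at 1.97. Col12a1, which links fibrils to other matrix, rose by 0.99, and Col7a1, the collagen of anchoring fibrils, by 1.26. The chains of a single collagen did not always move together. Col6a3 rose from 0.05, 0.237 and 0.205 CPM to 2.19, 2.26 and 3.25 CPM (3.96, edgeR adjusted p = 0.000324), whereas Col6a1 fell from 187, 168 and 182 CPM to 140, 153 and 150 CPM (−0.28, edgeR adjusted p = 0.002) and Col6a2 fell by 0.31 (edgeR adjusted p = 0.000441). Per length Col6a3 remained at 0.187 FPKM after treatment, far below Col6a1 at 29.5 FPKM. In the basement membrane collagen IV, Col4a1 (0.87) and Col4a2 (0.53) rose while Col4a5 fell from 97.8, 98.9 and 99.1 CPM to 65.5, 64.8 and 63.3 CPM (−0.61, SE 0.05, edgeR adjusted p = 2.34e-06).

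**Figure D2:**
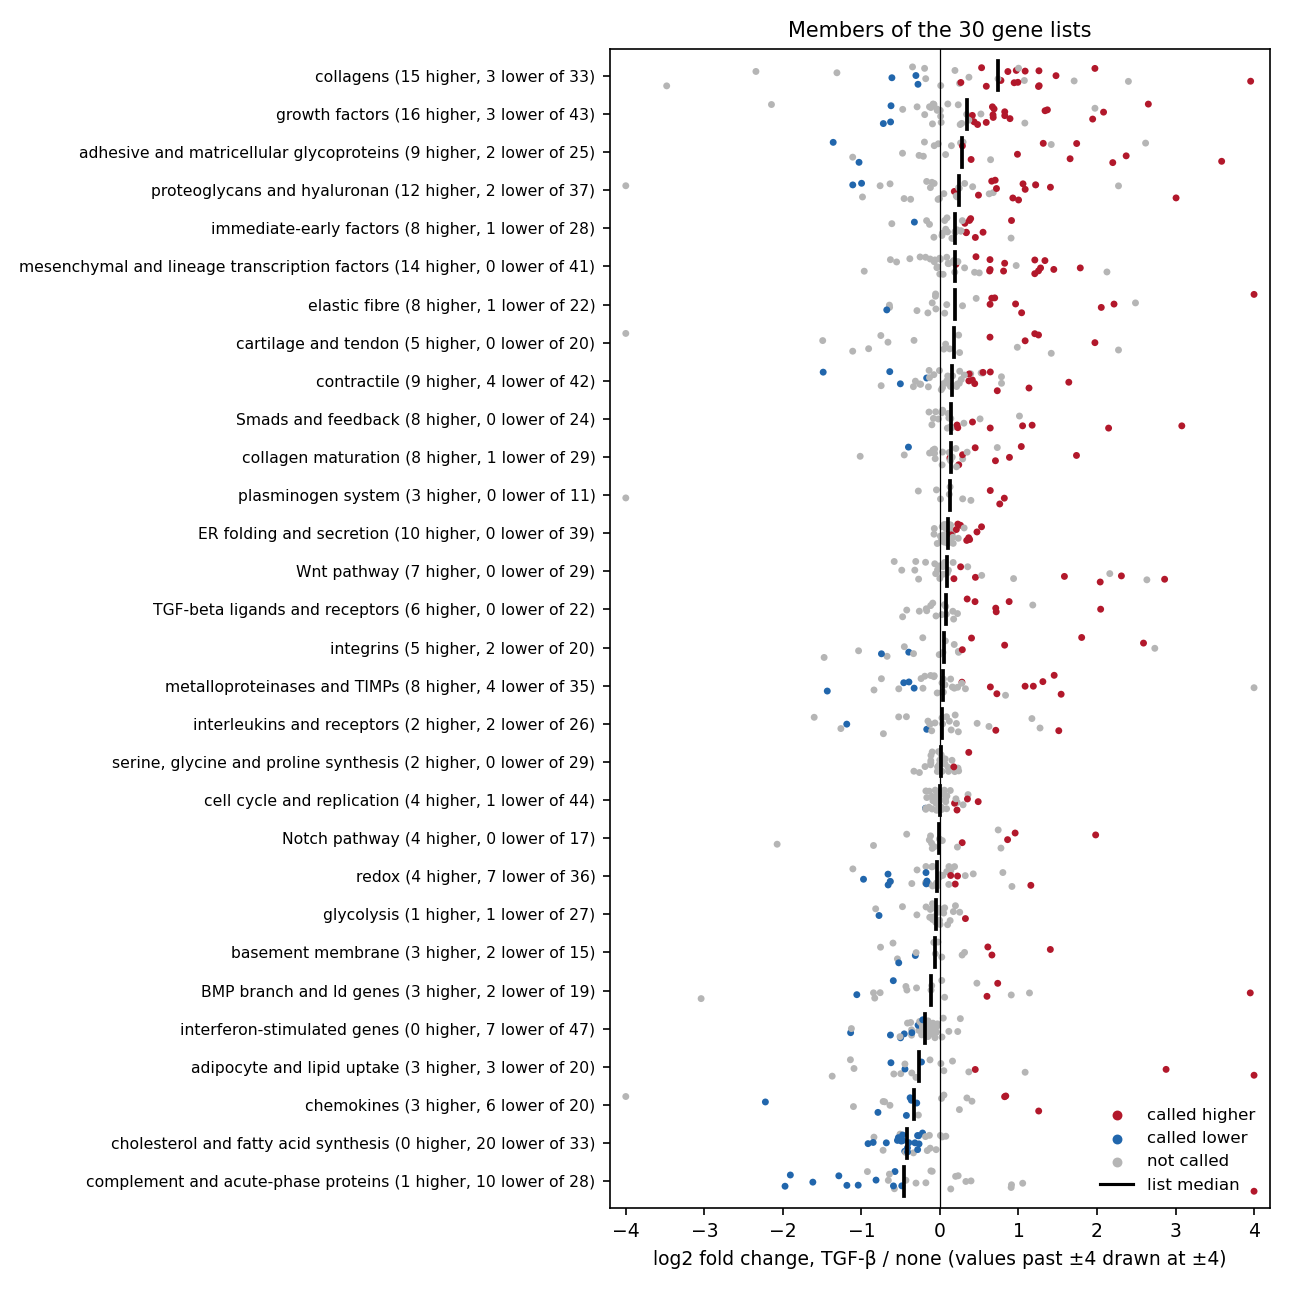
Log2 fold change of every tested member of 30 gene lists (one point per gene, red called higher, blue called lower, gray not called), with the median of each list as a black bar and values past ±4 drawn at ±4. Collagens have the highest median, 0.74, and complement and acute-phase proteins the lowest, −0.46.

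Enzymes and chaperones that mature collagen moved little, with 8 of 29 higher and 1 lower (median 0.14). Cthrc1, a secreted collagen triple helix repeat protein, rose from 8.25, 7.29 and 8.2 CPM to 25.7, 27.5 and 26.0 CPM (1.74, SE 0.09, edgeR adjusted p = 9.67e-09). The enhancers of procollagen C-proteinase went opposite ways, Pcolce2 from 11.6 ± 1.2 to 23.7 ± 0.5 CPM (SD, n = 3), a log2 fold change of 1.04, and Pcolce from 134.4 ± 14.5 to 101.8 ± 3.8 CPM (SD, n = 3), one of −0.40. Bmp1, the proteinase itself, rose by 0.71, the prolyl hydroxylase P4ha3 by 0.89 and the cross-linking oxidase Lox by 0.45. Serpinh1, the collagen chaperone HSP47, was at 0.35 and not called. Of 39 genes for folding and export of secreted proteins 10 were higher and none lower, all by less than 2-fold (median 0.11). The COPII coat genes Sec31a (0.47), Sec24d (0.38) and Sec23a (0.34), which shape the vesicles that carry procollagen, were among them, and the activators Creb3l1 (1.21) and Creb3l2 (0.81) of the secretory pathway rose more. The folding chaperone Hspa5 was not called (0.10).

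The elastic fibre list had 8 of 22 genes higher and 1 lower (median 0.19). Elastin itself (Eln) was at or near 0 in all 6 libraries and was not tested. What rose were the microfibril genes around it: Fbn1, the fibrillin, by 0.96, and the latent TGF-β binding proteins Ltbp2, Ltbp1 and Ltbp3, of which Ltbp1 and Ltbp3 hold TGF-β in the matrix in its latent form. Ltbp2 went from 4.94, 4.38 and 5.09 CPM to 21.2, 23.5 and 22.3 CPM (2.22, SE 0.11, edgeR adjusted p = 2.54e-09), Ltbp1 from 56.7, 49.9 and 52.0 CPM to 112, 92.7 and 122 CPM (1.04), and Ltbp3 rose by 0.66. The ADAMTS-like genes split, with Adamtsl3 up by 2.05 and Adamtsl4 down by 0.68.

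Of 25 adhesive and matricellular glycoproteins 9 were higher and 2 lower (median 0.29). The CCN family of secreted matrix signals covered the whole range. Ccn2, also called CTGF, rose from 37.2, 34.9 and 41.0 CPM to 123, 118 and 138 CPM (1.74, SE 0.10, edgeR adjusted p = 1.14e-08). Ccn4 rose from 31.4, 31.0 and 29.2 CPM to 133, 141 and 147 CPM (2.20, SE 0.07, edgeR adjusted p = 1.71e-11), and Ccn5 by 2.37 from under 1 CPM. Ccn3 fell from 12.4, 9.92 and 10.3 CPM to 6.19, 5.35 and 4.42 CPM (−1.03, edgeR adjusted p = 0.000335), and Ccn1 (−0.02) was not called. Igfbp7, which binds insulin-like growth factors, rose from 93.6, 91.5 and 86.6 CPM to 296, 270 and 291 CPM (1.66, SE 0.06, edgeR adjusted p = 8.3e-11).

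Postn (3.59), Thbs1 (1.32), Tnc (0.99) and Sparc (0.40), which encode periostin, thrombospondin 1, tenascin C and osteonectin, also rose, Postn from a mean of 0.246 CPM. Fn1, the fibronectin gene and often used as a readout of TGF-β, stood at 1870, 1810 and 1770 CPM untreated and 1900, 2050 and 2080 CPM treated. The groups did not overlap, but the difference of 0.15 on the log2 scale (SE 0.07) was not called (edgeR adjusted p = 0.309). Of 15 basement membrane genes 3 were higher and 2 lower (median −0.06). The laminin chains Lamb3 (1.41) and Lamb1 (0.61) rose, and nidogen (Nid1), which bridges laminin and collagen IV, fell from 350, 339 and 334 CPM to 236, 242 and 233 CPM (−0.52, SE 0.05, edgeR adjusted p = 3.41e-06).

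Proteoglycans and the hyaluronan system had 12 of 37 genes higher and 2 lower (median 0.24). Has2, the main hyaluronan synthase, rose from 2.19, 2.31 and 1.71 CPM to 15.7, 12.9 and 21.3 CPM (3.01, SE 0.18, edgeR adjusted p = 2.96e-08), with its antisense gene Has2os on the opposite strand. The hyaluronan receptor Cd44 rose by 0.70. The small leucine-rich proteoglycans diverged: Bgn (biglycan) rose by 0.93, while Dcn (decorin) fell from 5.5, 5.19 and 6.41 CPM to 2.77, 2.07 and 3.09 CPM (−1.11, edgeR adjusted p = 0.00446) and Ogn (osteoglycin) fell by 1.0. Sulf1 (1.06) and Sulf2 (1.41), which trim sulfate from heparan sulfate, and Chst11 (1.0), which adds it to chondroitin, all rose.

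Proteases and their inhibitors changed in both directions. Of 35 metalloproteinases and TIMPs 8 were higher and 4 lower (median 0.04). The inhibitors Timp3 and Timp1 rose, Timp3 from 77.7, 73.7 and 70.9 CPM to 182, 174 and 196 CPM (1.31, SE 0.06, edgeR adjusted p = 3.97e-09) and Timp1 from 51.1 ± 3.3 to 84.5 ± 2.3 CPM (SD, n = 3). Adamts5, an aggrecanase, fell from 40.6, 35.1 and 38 CPM to 13.4, 13.9 and 14.8 CPM (−1.43, SE 0.09, edgeR adjusted p = 5.36e-08), and Adamts9 by 0.46. Adamts6 (1.54), Adamts12 (1.45), Adam19 (1.19), Adamts7 (1.08) and Mmp14 (0.64), the membrane-bound collagenase, rose. The stromelysin Mmp3 was at or below 0.5 CPM in every library and Mmp9 near 2 CPM (0.14, edgeR adjusted p = 0.894). In the plasminogen system the urokinase receptor Plaur rose by 0.82, and the activators Plau (0.39) and Plat (−0.04) were not called.

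Integrins, the receptors for this matrix, had 5 of 20 genes higher and 2 lower (median 0.05). Itga11, a chain of a collagen receptor, rose from 1.21, 1.82 and 1.37 CPM to 9.34, 8.81 and 8.44 CPM. Its groups did not overlap, and the log2 fold change was 2.59 (SE 0.21, edgeR adjusted p = 9.91e-07). Itgb3 (1.81), Itgb5 (0.82), Itga5 (0.40) and Itgb1 (0.29), chains of vitronectin and fibronectin receptors, also rose. Itgb8, whose receptor releases latent TGF-β, fell from 4.72 ± 0.32 to 2.82 ± 0.28 CPM (SD, n = 3), a log2 fold change of −0.74.

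**Figure D3:**
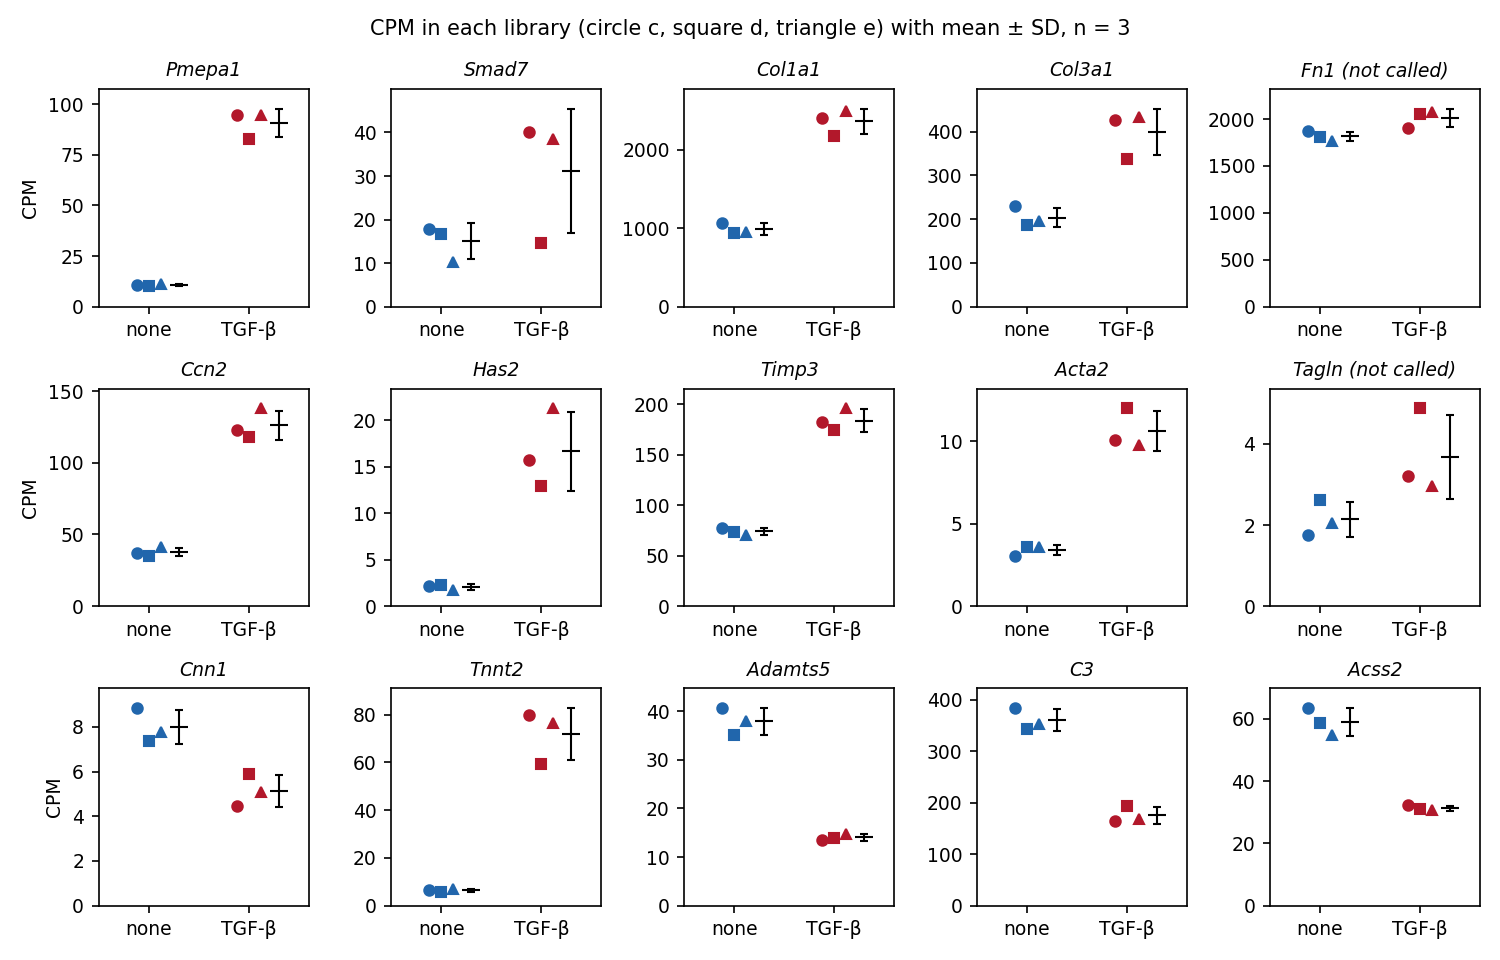
CPM in each empty vector library for 15 genes, untreated in blue and TGF-β in red (circle replicate c, square d, triangle e), with the mean ± SD of n = 3 beside the points and every axis starting at 0. Smad7 is the 1 gene shown whose groups overlap, and the Cnn1 call was lost in 5 of 6 fits with a library left out.

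Of 42 contractile and cytoskeletal genes 9 were higher and 4 lower (median 0.15). Acta2, the smooth muscle actin that marks myofibroblasts, stood at 3.04, 3.59 and 3.59 CPM untreated and at 10.1, 12.0 and 9.8 CPM treated (1.64, SE 0.14, edgeR adjusted p = 2.11e-06). That is a clear separation at a low level, since its treated mean per length was 4.24 FPKM beside 314.4 FPKM for Col1a1. Tagln (transgelin) had 1.76, 2.61 and 2.05 CPM against 3.21, 4.88 and 2.96 CPM, which did not overlap but was not called (0.78, SE 0.26, edgeR adjusted p = 0.102). Other smooth muscle genes went down. Cnn1 (calponin 1) had 8.85, 7.38 and 7.76 CPM against 4.44, 5.89 and 5.08 CPM (−0.64, edgeR adjusted p = 0.0342), a call lost when any library but treated replicate d was left out (edgeR adjusted p 0.0523 to 0.143) or with every gene of at least 1 count kept (edgeR adjusted p = 0.0509). Mylk, the myosin light chain kinase, fell by 0.50 and Sorbs2, an adaptor of actin fibres, by 1.49. The Z-disc and stress fibre genes Fhl2 (1.13), Csrp2 (0.73), Tpm1 (0.64), Myh9 (0.41) and Flna (0.37) rose, while Tpm2 fell by 0.17 and Myl9 (−0.31) was under 1 CPM and not called.

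The calls among lineage transcription factors were in 1 direction, with 14 of 41 higher and none lower (median 0.19), of which 11 held in every fit with 1 library left out. Of the 41 tested, 28 had a log2 fold change above 0 and 13 below. Runx1, a regulator of blood and mesenchymal fate, rose from 11.7, 12.5 and 10.8 CPM to 35, 28.2 and 32.4 CPM (1.45, SE 0.13, edgeR adjusted p = 1.85e-06). Sox4 rose from 42.9, 47.4 and 45.9 CPM to 119, 103 and 123 CPM (1.34, SE 0.07, edgeR adjusted p = 1.04e-08). Both separated the groups fully. The chondrogenic factor Sox9 rose from 10.2 ± 0.8 to 24.3 ± 2.4 CPM (SD, n = 3) and the tendon factor Scx from 8.93 ± 0.95 to 20.6 ± 0.7 CPM (SD, n = 3), and Hmga2, a chromatin protein, by 1.28. The factors of epithelial-mesenchymal transition were quieter, with Snai1 at 0.31 (edgeR adjusted p = 0.0776), Snai2 at −0.06 (edgeR adjusted p = 0.859), Zeb1 at 0.50 and Twist1 at −0.12, none of them called. Tead1 was called (1.79, edgeR adjusted p = 0.0271), but 1 library carried the size of it: 18.6, 19.8 and 19.0 CPM untreated against 139, 26.1 and 33.2 CPM treated. Without treated replicate c its adjusted p was 0.14, and the call was also lost without each of the 3 untreated libraries (edgeR adjusted p 0.0881 to 0.0972).

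Immediate-early factors had 8 of 28 higher and 1 lower (median 0.19), all by less than 2-fold, but only 4 of these 9 calls held throughout, and 4 genes of the list were called without treated replicate c or without treated replicate e and 5 without untreated replicate e. Junb, an AP-1 subunit, rose from 189, 179 and 191 CPM to 240, 255 and 239 CPM (0.39, SE 0.07, edgeR adjusted p = 0.00298), and Klf6, a zinc finger factor, by 0.55. Myc had 61.8, 45.4 and 53.1 CPM against 82.4, 61.1 and 75.5 CPM, overlapping groups whose call was lost without treated replicate c or e or untreated replicate d or e (edgeR adjusted p 0.0642 to 0.0916). Fos (−0.17), Jun (0.09) and Egr1 (0.17) were not called, and neither was the early TGF-β target Klf10 (0.27, edgeR adjusted p = 0.689). The groups of Klf10 did not overlap, with 120, 133 and 130 CPM untreated and 155, 154 and 151 CPM treated. Its SE of 0.25 came from the fit of all 18 libraries. Among 44 genes of the cell cycle and replication the median was 0.005, with 4 higher and 1 lower. Cdkn1a, the inhibitor p21, was the 1 call of the list that held in every fit, and rose from 309, 309 and 319 CPM to 411, 362 and 422 CPM (0.35, SE 0.05, edgeR adjusted p = 0.000477). The count for this list ran from 1 gene without treated replicate e to 8 without treated replicate d, with 3 without treated replicate c and 2 each without untreated replicates d and e. Cdkn2b, the inhibitor p15 and a classic TGF-β target, went from 20.9 ± 2.5 to 29.3 ± 5.0 CPM (SD, n = 3), a call lost in the 4 fits without treated replicate c or e or untreated replicate d or e (edgeR adjusted p 0.0889 to 0.142).

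Growth factors and their receptors had 16 of 43 genes higher and 3 lower (median 0.34). Of the platelet-derived growth factors, Pdgfb rose from 12.7, 13.2 and 11.7 CPM to 47.7, 49.2 and 47.6 CPM (1.95, SE 0.09, edgeR adjusted p = 2.21e-09), Pdgfc from 3.76, 2.12 and 2.2 CPM to 17.5, 10.5 and 22.9 CPM (2.65, SE 0.27, edgeR adjusted p = 1.07e-05), and Pdgfa by 0.68. Their receptor Pdgfrb rose by 0.83, and Pdgfra (0.41) was not called. Vegfc, a growth factor of lymphatic vessels, rose by 2.08 and Vegfa by 0.48. Further rises were Edn1 (1.37), the precursor of endothelin 1, Cish (1.34), a brake of cytokine signals, Areg (0.89) and its receptor Egfr (0.68), and the receptor Fgfr1 (0.67). Kitl, the ligand of Kit, fell from 26.2, 26.1 and 27.4 CPM to 17.7, 18 and 15.8 CPM (−0.63, edgeR adjusted p = 0.000258), and Hgf, the hepatocyte growth factor gene, was near 0 and not tested.

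Of 29 Wnt pathway genes 7 were higher and none lower (median 0.09), and 4 of the list were called without treated replicate c, treated replicate e or untreated replicate c. The receptor Lgr6, which amplifies Wnt signals, rose from 2.49, 1.49 and 2.33 CPM to 7.74, 8.82 and 9.38 CPM (2.04, SE 0.17, edgeR adjusted p = 1.24e-06), the ligand Wnt7b by 2.86 from 0.214 CPM, and the receptor Fzd2 by 0.45. Axin2, a common target of the pathway, was at −0.58 and not called. Of 17 Notch genes 4 were higher and none lower (median −0.006), and 2 were called without untreated replicate e. The ligand Jag1 rose from 10.3, 9.3 and 7.96 CPM to 37.2, 32.7 and 39.0 CPM (1.98, SE 0.11, edgeR adjusted p = 1.04e-08), and the receptor Notch4 by 0.96. Notch1 (−0.11) and Notch3 (−0.07) were not called.

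Genes of innate defence went down more often than up. Of 28 complement and acute-phase genes 10 were lower and 1 higher (median −0.46), against 2.01% of all genes called lower. C3, the central complement component, fell from 384, 343 and 353 CPM to 164, 193 and 168 CPM (−1.04, SE 0.08, edgeR adjusted p = 5.95e-07). The acute-phase genes Saa3, from 15.0, 12.7 and 15.4 CPM to 3.38, 4.32 and 3.81 CPM (−1.90), and Lcn2, which binds bacterial iron carriers, from 56.3, 51.6 and 47.3 CPM to 23.4, 20.2 and 24.7 CPM (−1.18), fell without overlap. The copper protein Cp (−1.62), the protease inhibitor Slpi (−1.29), the adhesion molecule Vcam1 (−0.59), the complement protease C1ra (−0.57) and Lbp (−0.49), which binds lipopolysaccharide, fell as well. Cfi, complement factor I, went the other way (4.60), but with a mean under 1 CPM over the 6 libraries.

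Chemokines had 6 of 20 genes lower and 3 higher (median −0.33). Ccl20 fell from 11.9, 9.4 and 11.6 CPM to 2.02, 2.24 and 2.8 CPM (−2.22, SE 0.22, edgeR adjusted p = 7.08e-06), and Cxcl1, a chemoattractant of neutrophils, from 110, 107 and 109 CPM to 63.2, 68.4 and 57.1 CPM (−0.79, SE 0.11, edgeR adjusted p = 0.000258). Ccl2, which attracts monocytes, fell by 0.43, Ccl5 by 0.36 and Cxcl10 by 0.30. Ccl17 (1.26), the membrane-bound Cxcl16 (0.84) and the scavenging receptor Ackr3 (0.82) rose. Interleukin genes showed few calls, 2 higher and 2 lower of 26 (median 0.03). Il11, a cytokine that TGF-β is known to induce in fibroblasts, had 1.27, 2.08 and 1.28 CPM against 4.56, 3.61 and 2.28 CPM and was not called (1.17, SE 0.34, edgeR adjusted p = 0.0596), nor was Il6 (−0.52, edgeR adjusted p = 0.15).

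Interferon-stimulated genes leaned down by a small amount. Of 47 tested 7 were lower and none higher, 42 had a log2 fold change below 0, and the median was −0.18, against 10478 of 21161 genes below 0 over the whole table. Gbp2, a guanylate-binding protein, fell from 52.0, 56.5 and 55.8 CPM to 35.5, 37.8 and 32.9 CPM (−0.63, SE 0.06, edgeR adjusted p = 5.9e-06), and Oas2, a sensor of viral RNA, by 0.50. The number called depended on single libraries, with 3 without treated replicate e, 4 without untreated replicate e and 11 without treated replicate d. The antiviral Mx1 (−0.36) was not called.

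Cholesterol and fatty acid synthesis had the largest share of members called in the main result, but in 5 of 6 fits with 1 library left out the collagens, also with 33 genes tested, had more calls. All 20 calls among 33 tested genes were lower, 30 of the 33 were below 0, and the median was −0.41. The changes were small, none reaching 2-fold. Acss2, which makes acetyl-CoA from acetate, fell from 63.6, 58.6 and 54.9 CPM to 32.2, 31.2 and 30.6 CPM (−0.92, SE 0.08, edgeR adjusted p = 2.06e-06), and it overlaps Gss on the opposite strand. Acly, which makes acetyl-CoA from citrate, fell by 0.47. Along the mevalonate and sterol steps Mvk (−0.40), Pmvk (−0.45), Mvd (−0.54), Fdps (−0.48), Cyp51 (−0.27), Nsdhl (−0.28) and Sc5d (−0.27) fell. The sterol carrier Stard4 fell by 0.41 and the fatty acid elongase Elovl6 by 0.41.

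Other steps of the same pathway had as large a difference with more spread. Idi1 was at −0.84 (edgeR adjusted p = 0.07), Hmgcs1 at −0.72 (edgeR adjusted p = 0.11) and Sqle at −0.34 (edgeR adjusted p = 0.0723), and they were not called. Lss, the synthase of lanosterol, had 326, 315 and 315 CPM untreated and 184, 223 and 123 CPM treated (−0.85, edgeR adjusted p = 0.0132), a call lost without treated replicate e (edgeR adjusted p = 0.0512). Srebf2, the master regulator of sterol genes, was at −0.50, a call lost without the same library (edgeR adjusted p = 0.0669). Without treated replicate e the list had 13 called genes in place of 20. Srebf1 (0.08), Fasn (−0.18) and Insig1 (−0.16), the partner regulator, the fatty acid synthase and the sterol sensor, were not called.

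**Figure D4:**
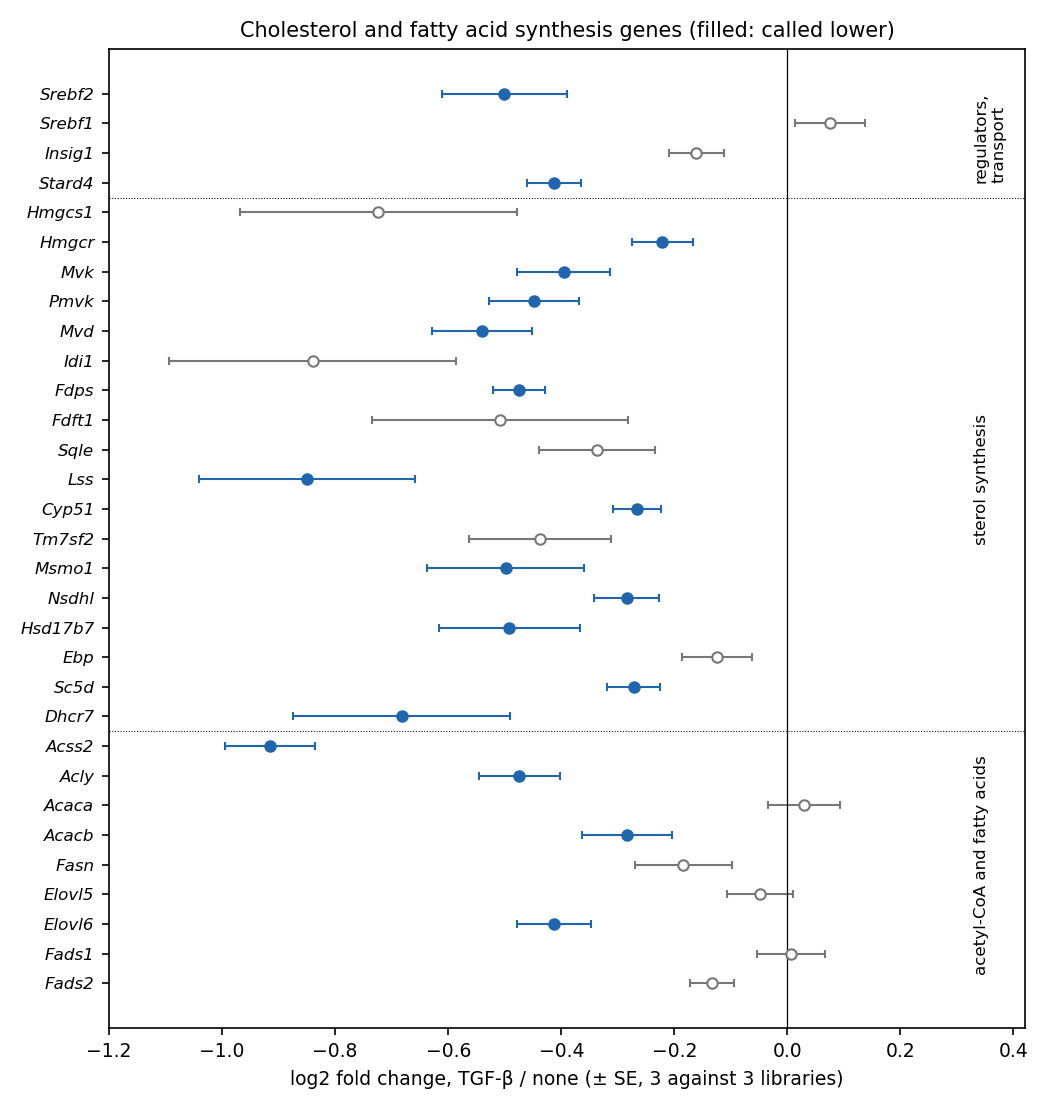
Log2 fold change (treated minus untreated) ± SE for 31 of the 33 tested genes of cholesterol and fatty acid synthesis, grouped by step, with filled points for genes called lower and open points for genes not called. Points lie left of 0 for 28 of the 31 genes shown, and 18 are called.

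Lipid handling outside synthesis split evenly, with 3 of 20 genes higher and 3 lower (median −0.27). The lipid droplet coat Plin2 rose from 148.9 ± 4.1 to 203.4 ± 8.0 CPM (SD, n = 3), and the triglyceride enzymes Dgat2 (−0.62) and Pnpla2 (−0.45) and the desaturase Scd1 (−0.24) fell. Pparg, the regulator of fat cells, was at 0 or near it in all libraries and was not tested. Redox genes had 4 of 36 higher and 7 lower (median −0.04), and 5 of these 11 calls held throughout; 6 genes were called without treated replicate c or untreated replicate d and 5 without treated or untreated replicate e. Nox4, an NADPH oxidase that makes hydrogen peroxide, rose from 1.92, 1.57 and 2.26 CPM to 4.44, 3.47 and 4.95 CPM (1.16, SE 0.23, edgeR adjusted p = 0.00583). Xdh, xanthine dehydrogenase, fell from 39.6, 39.9 and 39.1 CPM to 20.9, 20.2 and 19.3 CPM (−0.97, SE 0.10, edgeR adjusted p = 1.11e-05), with the glutathione transferases Gstm1 and Gsta4 (−0.66 each).

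In glycolysis 1 of 27 tested genes was higher and 1 lower (median −0.05), a share of 7.41% near the 5.88% over all genes tested. The higher gene was Hk2, a hexokinase, by 0.32. The count ran from 1 called gene without treated replicate e or untreated replicate c or d to 4 without treated replicate d. Of 29 genes for serine, glycine and proline, the amino acids that collagen needs, 2 were higher and none lower (median 0.02). That share of 6.9% is also near the 5.88% over all genes. Neither call held in every fit: 0 genes were called without treated replicates c or e or untreated replicates c or e, 1 without untreated replicate d and 3 without treated replicate d. Phgdh (−0.10) and Psat1 (−0.12), which open the path to serine, were not called. Among 20 genes of cartilage and tendon 5 were higher and none lower (median 0.18), the factors Sox9, Scx and Mkx and the collagens Col11a1 and Col2a1, and 3 were called without untreated replicate e. Mkx was lost without treated replicate c or e or untreated replicate d or e (edgeR adjusted p 0.0591 to 0.0907) and Col2a1 without treated replicate d or untreated replicate c or e (edgeR adjusted p 0.0836 to 0.123).

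Promoter sequence was read for motifs of factors that work with Smads or drive the genes above, as a description only. RefSeq windows on GRCm38.p6, from 250 bases before to 50 after a start site, matched 12362 of 21073 symbols and gave 15688 windows. Both strands were searched for exact letters. The AP-1 motif TGACTCA was in 4.42% of all windows, in 12.5% of those of genes called at least 2-fold higher (20 of 160). Over all called genes it was in 6.05% of the windows of the higher (48 of 793) and 6.43% of those of the lower ones (25 of 389). The Smad palindrome (GTCT directly followed by AGAC) was in 0.236% of all windows and in 0.883% of those of the genes called higher (7 of 793), and in 0 of 389 of the lower ones. For the TEAD motif GGAATGT the shares were 2.98% of all windows, 3.03% of those of genes called higher, 5.0% of those at least 2-fold higher and 4.88% of those called lower. The CArG box, bound by serum response factor, was in 1.4% of all windows and 19.2% of those of the contractile list (10 of 52), and the E-box CACGTG in 9.18% of all windows and 16.7% of those of the cholesterol and fatty acid list (5 of 30). No exact CArG box lay in the windows of Acta2 or Cnn1. Genes can have several windows, and motifs can overlap.

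Runs of 150 bases directly before the start site are shown for 5 genes that rose, with the motif in capitals, to show where the letters sit. Each reads 5′ to 3′ on the gene's strand. In Tnnt2 the motif is TEAD on the reverse strand, 28 to 22 bases before the start. Fhl2 has a CArG box before each of 2 start sites, at 96 to 87 and at 31 to 22 bases, and Pdgfc has one at 17 to 8 bases. Olr1 holds AP-1 in its reverse form at 60 to 54 bases and Plaur in its forward form at 69 to 63 bases.
Tnnt2 (chr1:135836184-135836333, + strand): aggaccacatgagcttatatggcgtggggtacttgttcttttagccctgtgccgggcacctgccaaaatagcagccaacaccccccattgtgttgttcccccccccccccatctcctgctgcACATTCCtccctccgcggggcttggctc
Fhl2, upstream start site (chr1:43196762-43196911, − strand): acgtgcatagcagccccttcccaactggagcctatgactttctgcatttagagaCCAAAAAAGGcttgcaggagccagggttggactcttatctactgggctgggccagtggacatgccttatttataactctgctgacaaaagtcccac
Fhl2, downstream start site (chr1:43163962-43164111, − strand): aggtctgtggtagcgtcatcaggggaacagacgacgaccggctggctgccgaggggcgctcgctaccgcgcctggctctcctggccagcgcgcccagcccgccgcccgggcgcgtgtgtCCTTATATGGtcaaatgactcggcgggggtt
Pdgfc (chr3:81036266-81036415, + strand): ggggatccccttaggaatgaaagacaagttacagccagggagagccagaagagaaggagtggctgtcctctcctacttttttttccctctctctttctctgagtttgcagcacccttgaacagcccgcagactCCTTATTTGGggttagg
Olr1 (chr6:129507166-129507315, − strand): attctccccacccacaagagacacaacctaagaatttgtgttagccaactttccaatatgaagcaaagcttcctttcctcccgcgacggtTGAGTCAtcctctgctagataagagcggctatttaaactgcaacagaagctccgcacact
Plaur (chr7:24462333-24462482, + strand): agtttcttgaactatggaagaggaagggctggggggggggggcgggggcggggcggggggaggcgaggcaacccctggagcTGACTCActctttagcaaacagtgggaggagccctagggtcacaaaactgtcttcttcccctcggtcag

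The response was then read in the cells with the other vectors, which are independent libraries with their own untreated controls. The third count column of each Col1a1-miR-29b group had a letter that no sample label has, and was taken as a library of its group from the rest of its name. TGF-β changed 914 genes (4.32% of those tested) with the Col1a1-miR-29b vector and 1047 (4.95%) with the CMV-miR-29b vector. Of the 820 genes higher in empty vector cells 802 (97.8%) had the same direction in Col1a1-miR-29b cells and 487 (59.4%) were called there, and 800 (97.6%) and 499 (60.9%) in CMV-miR-29b cells. Of the 425 lower genes 405 (95.3%) and 406 (95.5%) had the same direction, and 184 (43.3%) and 214 (50.4%) were called. Over all genes tested the direction was shared by 63.3% and 61.7%. Seen from the other side, 671 of the 914 Col1a1-miR-29b calls (73.4%) and 713 of the 1047 CMV-miR-29b calls (68.1%) were also called in empty vector cells. In all 3 vectors 412 genes were called higher and 145 lower. The median log2 fold change of the 820 genes was 0.47 in empty vector cells, 0.36 with the Col1a1-miR-29b vector and 0.36 with the CMV-miR-29b vector, and since the genes were chosen by their empty vector values this order is only a description.

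The test of the difference itself called no gene. Of 21161 genes 0 (0.0%) had a different response when the vector was Col1a1-miR-29b, and 0 (0.0%) when it was CMV-miR-29b, by edgeR, with 961 and 1129 genes at an unadjusted p under 0.05 and lowest adjusted p of 0.175 and 0.113, whereas DESeq2 called 22 and 16, and edgeR without the 2 Col1a1-miR-29b count columns that no label names called 3 and 0. No response is therefore called particular to the empty vector here, which does not show that the responses were alike. Col1a1 rose by 1.26 in empty vector cells, 1.03 with the Col1a1-miR-29b vector and 1.12 with the CMV-miR-29b vector, and Pmepa1 by 3.08, 2.47 and 2.72. Inhba rose by 2.05, 1.11 and 1.64, and Jag1 by 1.98, 1.33 and 1.61. Tead1, the gene carried by 1 treated library, was at 0.22 and 0.28 in the other vectors and not called there. Acss2 fell by 0.92, 0.71 and 0.96, and C3 by 1.04, 0.90 and 0.92.

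Genes called in opposite directions were 3, named here after their values were seen. Zfp385c, a zinc finger gene with at most 11 counts in any empty vector library, was called higher there and lower in CMV-miR-29b cells, and Gga3, a sorting adaptor of the Golgi, rose by 0.59 and fell by 0.73 in CMV-miR-29b cells. The gene model Gm5643 was at −1.04 and 1.04. Their empty vector calls were lost in all 6 fits with a library left out for Zfp385c (edgeR adjusted p 0.0537 to 0.0876) and Gga3 (edgeR adjusted p 0.0588 to 0.0971), and for Gm5643 in all but the fit without untreated replicate c (edgeR adjusted p 0.0599 to 0.0955). AC157931, an uncharacterized gene that overlaps B3gnt4 on the same strand, had 0 counts in all 3 untreated libraries and 372, 551 and 396 counts in the treated ones. It had no rise in the other vectors, with fitted values below 0 that were not called (edgeR adjusted p = 0.117 and 0.809), and its own call was lost in every fit with a library left out (edgeR adjusted p 0.0626 to 0.108). Gm3488, at −4.02 in empty vector cells, was at −0.30 and 0.17 in the others and not called.

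**Figure D5:**
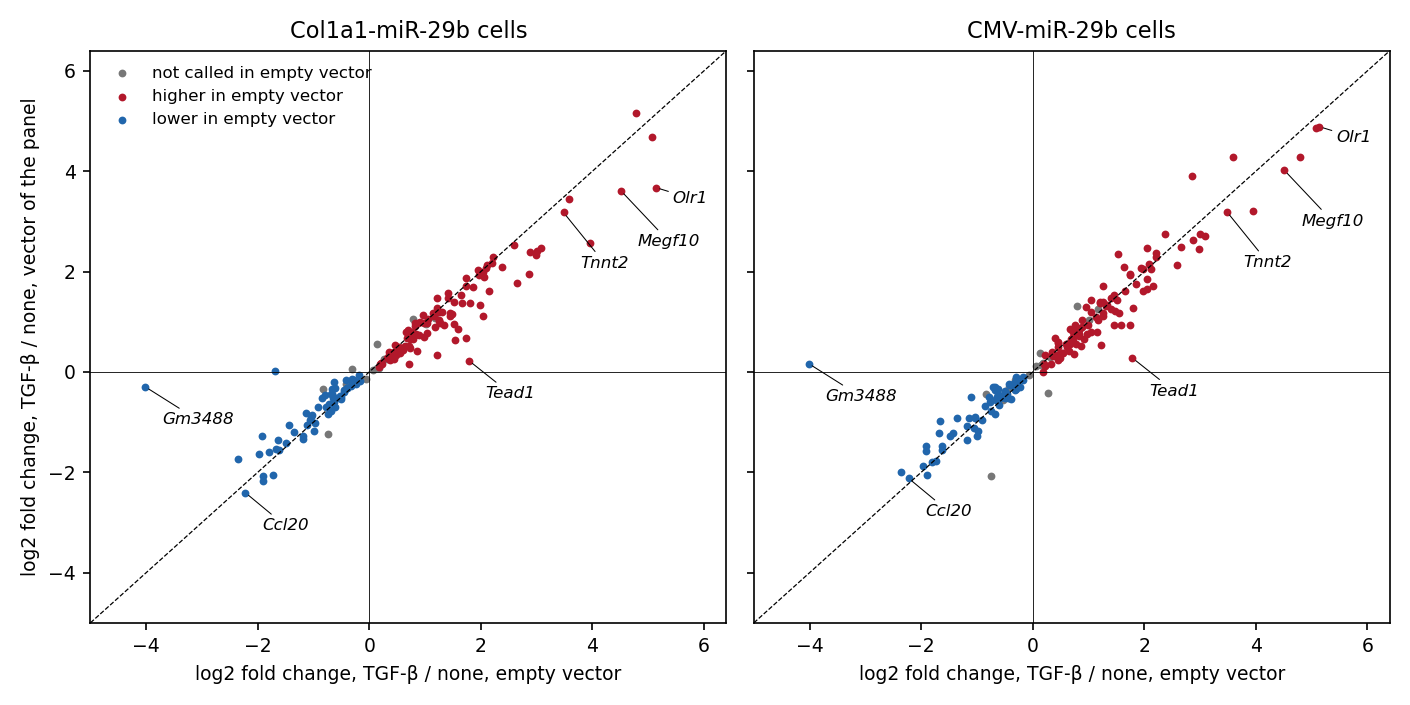
Log2 fold change (treated minus untreated) with the Col1a1-miR-29b vector (left) and the CMV-miR-29b vector (right) against that in empty vector cells, for the tested genes that the naming rule selected (red higher, blue lower, gray not called in empty vector cells), with a dashed line of equal change and AC157931, past the axis, not drawn. Most points lie near the dashed line, while Tead1 and Gm3488 lie near 0 in the other vectors.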

How the data were processed

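Poly(A) RNA from 18 cultures of MEF cells (6 groups of 3) had been prepared with a stranded mRNA kit and sequenced in paired ends. The authors trimmed reads with cutadapt, aligned them with HISAT2 and assembled transcripts with StringTie; how counts were taken and with which strand setting is not given in the sources used here. The deposited table held raw counts per gene, which were used as deposited, and FPKM from the authors, who wrote 0.0001 in place of 0. In all 2 FPKM columns that could not be tied to a sample were not used, while the matching 2 count columns were used as libraries of the Col1a1-miR-29b groups that their names show. The submitters' notes name mm9, but 52506 of 55450 genes had the coordinates of GRCm38 (GENCODE M21), so coordinates are given on GRCm38. Counts that are multiples of 4 were in excess, and an alternative divided them by 4.

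Counts were fitted with edgeR 4.0.16 (R 4.3.3) after filterByExpr and TMM scaling, with a mean per group, 6 in all, leaving 12 residual degrees of freedom, and the quasi-likelihood F test was adjusted by Benjamini-Hochberg. The 6 empty vector libraries held 73598078 to 80332633 counts. DESeq2 1.42.0 and limma 3.58.1 on log2(FPKM + 1) and log2(FPKM + 0.1) were among 17 alternatives, of which the fit without the 2 Col1a1-miR-29b columns was chosen after seeing the data. The scripts were checked on simulated counts. Lists were described by counts and medians, with no test of a list. The members and the 30 gene lists, and 6 marker lists, were chosen with earlier results of these data known. Named genes were 60 fixed genes, the 3 largest rises and falls called in each list, the 12 largest over all genes (both with a mean of at least 1 CPM) and the 10 of lowest p; other list members named are examples chosen after their values were seen, and some genes that the rule names are not reported here. Replicate letters were not used to pair the libraries in the main fit. The deviations of same-letter libraries from their group means correlated at 0.117 (c), 0.0016 (d) and 0.017 (e) over 13795 genes. These values do not settle whether such libraries were cultured together. Where an untreated group was at 0, folds were set against a floor of 3 counts per library, which covers counting error only.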

Additional observations from a re-analysis of the deposited data

How the results depend on the processing

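The number of genes called changed with the test and the libraries more than with scaling. Against 1245 calls (820 higher, 425 lower, 253 at least 2-fold), a fit of the 6 empty vector libraries alone gave 618 (423 higher, 195 lower), limma on log2(FPKM + 1) gave 476 (299 higher, 177 lower, 66 at least 2-fold) and on log2(FPKM + 0.1) 473 (306, 167 and 164). DESeq2 called 1753, with 716 lower, and found 22 and 16 genes with a different response with the Col1a1-miR-29b and the CMV-miR-29b vector where edgeR found 0. Leaving out 1 library gave 725 to 1428 calls, 480 to 868 higher, 245 to 560 lower and 206 to 273 at least 2-fold. Adding the replicate letter as a block to the fit of the 6 libraries gave 299 calls (227 higher, 72 lower) and 128 at least 2-fold. Treated replicate d deviated most like untreated replicate e (0.129), and the 2 libraries of letter c correlated at 0.117. These correlations cannot settle whether libraries of the same letter were cultured together. Without the 2 Col1a1-miR-29b count columns that no label names, an alternative chosen after seeing the data, 1076 genes were called (702 higher, 374 lower) and 3 genes had a different response with that vector. With DESeq2 size factors, total counts, the other filters on low counts and counts divided by 4, from 1016 to 1388 genes were called, and total counts moved the median log2 fold change of all genes from 0.002 to −0.035.

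Of 198 called genes named in the text 181 kept their call in every fit with 1 library left out and 113 in every alternative that could test them, and none changed direction. The named genes were chosen and are not a fair sample of the calls, since some genes that the rule names are not reported. Over all genes tested 635 of 1245 calls held in every fit with 1 library left out. Genes that were not called changed sign: with 1 library left out Ccn1 ran from −0.0635 to 0.0268, Mmp9 from −0.0285 to 0.274, Serpinh1 from −0.271 to 0.777, Snai2 from −0.157 to 0.0071 and Tgfb2 from −0.0262 to 0.105. With 3 libraries a group, changes of low genes are the least certain.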

Other observations

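The genes in this section lie outside the lists above and were chosen after their values were seen. Class 3 semaphorins, secreted guidance cues that act on axons, vessels and migrating cells, all had lower mean levels with TGF-β. Of the 7 tested 5 were called lower, against 2.01% of all genes tested, in a family picked for its falls. Sema3e fell from 41.3, 37.3 and 33.8 CPM to 16.3, 14 and 16.2 CPM (log2 fold change −1.27, SE 0.10, edgeR adjusted p = 5.4e-07). Sema3a fell from 25.3, 21.1 and 24.0 CPM to 10.3, 9.26 and 10.3 CPM (−1.24, SE 0.15, edgeR adjusted p = 4.56e-05), and Sema3c from 43.9, 32.7 and 28.8 CPM to 21.1, 14.2 and 16.7 CPM (−1.02). In none of these genes did the groups overlap. Sema3b fell by 0.45 and Sema3f by 0.41, the latter lost without treated or untreated replicate c (edgeR adjusted p 0.0564 and 0.0586). Not called were Sema3g (edgeR adjusted p = 0.0938) and Sema3d (edgeR adjusted p = 0.714), the latter at a mean of only 0.33 CPM untreated. With the Col1a1-miR-29b and the CMV-miR-29b vector Sema3e was at −1.01 and −1.12 and Sema3a at −1.34 and −0.62.

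Some genes known from the outer layers of skin were called, and how many such genes were tested was not counted. The cornified envelope genes Lce1g, from 2.72, 2.92 and 3.43 CPM to 8.7, 8.3 and 9.78 CPM (1.56, edgeR adjusted p = 1.16e-07), and Sprr2e (1.06), the desmosome gene Pkp1, from 46.9, 43.1 and 42.4 CPM to 104, 84.7 and 98.0 CPM (1.11, edgeR adjusted p = 9.15e-08), and the keratin Krt16 (1.16) were all higher. Krt19, a keratin of simple epithelia, fell from 83.1, 68.3 and 71.4 CPM to 50.5, 39.1 and 49.1 CPM (−0.68, edgeR adjusted p = 6.11e-05). Epcam and Cldn3 were at 0 in all 6 libraries.

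Prss46 and Prss50, serine protease genes next to each other at chr9:110844506-110856522 and chr9:110857967-110864629 (GRCm38), had 0 counts in the 3 untreated libraries. Prss46 had 128, 121 and 108 counts and Prss50 had 86, 71 and 103 counts in the treated ones. Against a floor of 3 counts per untreated library Prss46 was at least 42.7-fold and Prss50 at least 31.2-fold higher. Both were also called higher in both other vectors (edgeR adjusted p 0.000338 and 8.16e-05 for Prss46 and 0.0135 and 0.0098 for Prss50). Single surface genes were called lower. Cd34, a sialomucin, fell from 120, 116 and 111 CPM to 73.0, 57.4 and 64.9 CPM (−0.83, SE 0.09, edgeR adjusted p = 1.11e-05), and Scara5, a ferritin receptor, fell by 1.29. Ly6a, a GPI-anchored protein, fell by 1.24, a call lost without treated replicate e or untreated replicate c (edgeR adjusted p 0.0737 and 0.0671).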
